A study of Arabidopsis thaliana with 18 samples.

Results

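The KIP-RELATED PROTEIN (KRP) genes encode 7 inhibitors of cyclin-dependent kinases (CDKs) in Arabidopsis, with a conserved C-terminal end related to the animal CDK inhibitor p27. They were taken by locus, *KRP1* (AT2G23430), *KRP2* (AT3G50630), *KRP3* (AT5G48820), *KRP4* (AT2G32710), *KRP5* (AT3G24810), *KRP6* (AT3G19150) and *KRP7* (AT1G49620), and make up 7 of the 24532 genes in the count tables and 10 of the 32294 splice variants. Each gene is read through its lowest-numbered variant. RNA was sequenced from leaf mesophyll protoplasts, single cells freed of their walls, in 6 groups of 3 libraries: *nph4-1 arf19-1* and WT on Day 0, *nph4-1 arf19-1* and WT on Day 4, and *nph4-1 arf19-1* and WT on Day 6. The WT is Columbia-0, and the double mutant lacks full function of the auxin-responsive transcription factors ARF7 (*nph4-1*) and ARF19. All protoplasts came from rosette leaves 1 to 5 of plants 23 days after sowing. Day 0 cells were freshly isolated. Those of Days 4 and 6 had been kept in the dark, in alginate gel, in a medium that holds the synthetic auxin 2,4-D and the cytokinin thidiazuron, so both genotypes were exposed to auxin throughout culture. For the 3 Day 6 libraries of *nph4-1 arf19-1* the sample labels give yucasin, an inhibitor of auxin synthesis, as treatment, while the study's own description of this experiment names none, so at Day 6 the genotype and this labelled treatment cannot be told apart, and the same holds for Day 6 against the earlier days in the mutant.

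KRPs bind the complex of CDKA;1 with a D-type cyclin and block its kinase activity. This complex phosphorylates RETINOBLASTOMA-RELATED 1 (RBR1), which frees E2F transcription factors to start DNA replication, so KRPs act on the step from G1 to S phase. Mesophyll cells of a mature leaf do not divide, and in culture some of them divide again. The study reports division in only a small percent of the protoplasts, so each cultured library mixes cells that divide with many that do not. KRP proteins are removed by ubiquitin ligases, among them the F-box proteins SKP2B and FBL17 and the RING proteins RHF1A, RHF2A and RKP, and mRNA levels do not show protein levels.

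The coding sequences of the members are shown first, since their likeness sets what read counts can tell apart. Over whole coding sequences, pairs of members had from 41.3% identical bases (*KRP2* and *KRP4*) to 62.7% (*KRP6* and *KRP7*) in an alignment. The last bases of each coding sequence, which encode the conserved C-terminal end, are shown from RefSeq (TAIR10.1), 5′ to 3′ up to the stop codon and spliced over 1 intron, with bases that are the same in all 7 members in capitals.
KRP1: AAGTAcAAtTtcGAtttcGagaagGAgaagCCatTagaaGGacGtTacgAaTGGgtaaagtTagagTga
KRP2: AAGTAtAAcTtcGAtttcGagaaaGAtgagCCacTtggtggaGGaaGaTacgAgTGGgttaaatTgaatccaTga
KRP3: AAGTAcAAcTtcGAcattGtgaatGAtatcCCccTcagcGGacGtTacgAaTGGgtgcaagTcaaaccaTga
KRP4: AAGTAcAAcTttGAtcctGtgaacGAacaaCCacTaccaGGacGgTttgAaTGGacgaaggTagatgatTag
KRP5: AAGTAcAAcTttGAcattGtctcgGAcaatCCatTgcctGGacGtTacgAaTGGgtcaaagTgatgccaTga
KRP6: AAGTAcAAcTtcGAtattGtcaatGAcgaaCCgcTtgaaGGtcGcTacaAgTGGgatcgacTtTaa
KRP7: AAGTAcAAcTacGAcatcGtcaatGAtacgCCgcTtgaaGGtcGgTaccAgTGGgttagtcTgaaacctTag
In this stretch 26 of 75 alignment columns hold the same base in every member. Pairs were identical at 55.6% (*KRP4* and *KRP7*) to 78.8% (*KRP6* and *KRP7*) of the columns that both fill. The longest run of identical bases that any 2 members' transcripts share is 18 bases, between *KRP1* and *KRP7*.

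The genes lie on 4 of the 5 nuclear chromosomes of TAIR10.1. *KRP7* is on chromosome 1 (18365336 to 18366744, minus strand), *KRP1* (9976590 to 9978090, minus strand) and *KRP4* (13873362 to 13876737, plus strand) are on chromosome 2, and *KRP3* is on chromosome 5 (19792270 to 19794480, minus strand). *KRP6* (6616330 to 6617951, minus strand), *KRP5* (9060836 to 9062003, plus strand) and *KRP2* (18800306 to 18801595, plus strand) are on chromosome 3.

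Library totals ran from 3438524 to 12119944 mapped reads, and 3 reads stand for 0.282 to 0.786 CPM (reads relative to library size, here scaled by TMM factors that align the libraries on the bulk of their variants). This floor covers counting error only. *ARF7* was lower in *nph4-1 arf19-1* than in the WT on all 3 days (log2 fold change -1.86, -1.63 and -1.15), and *ARF19* at Days 4 and 6 (-2.45 and -3.07), while at Day 0 *ARF19* stood at 0.32 and did not pass (FDR 0.289, edgeR). Of 5 mesophyll markers (*CAB3*, *RBCS1A*, *LHCB2.1*, *CA1* and *GAPA*), all 5 had reads in every library. Their summed level was 1174 to 2688 CPM in *nph4-1 arf19-1* and 861 to 1299 CPM in the WT at Day 0. At Day 4 it was 283 to 388 CPM in *nph4-1 arf19-1* and 212 to 431 CPM in the WT. At Day 6 it was 252 to 432 CPM in *nph4-1 arf19-1* and 412 to 589 CPM in the WT. In bulk RNA of this kind, fewer cells of a type and less RNA per cell cannot be told apart. The 3 libraries of a group are given as biological replicates, without saying what separates them, so p-values measure the spread between these samples.

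At Day 0 the family was made up mostly of *KRP7*, *KRP5* and *KRP6*. Per kilobase of transcript, which allows genes to be compared, *KRP7* stood at 23.5 ± 6.41 CPM per kb in *nph4-1 arf19-1* and 12.7 ± 0.474 CPM per kb in the WT (SD, n = 3 each). *KRP6* stood at 17.9 ± 3.77 CPM per kb in *nph4-1 arf19-1* and 21.8 ± 2.47 in the WT, and *KRP5* at 18.1 ± 2.54 in *nph4-1 arf19-1* and 17.2 ± 2.21 in the WT (SD, n = 3 each). *KRP1* and *KRP4* had between 4.45 and 6.04 CPM per kb in the group means, *KRP3* about 2 CPM per kb, and *KRP2* was near the floor. These ranks rest on the lengths of the RefSeq models of variant 1. For *KRP7* that model has 789 bases and the other RefSeq models 1129 and 1206 bases, so its level per kb would be lower with them. For *KRP4* it has 2391 bases and the model of variant 2 has 1482 bases. The level per kb of *KRP4* would be higher with the shorter model.

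**Figure D1:**
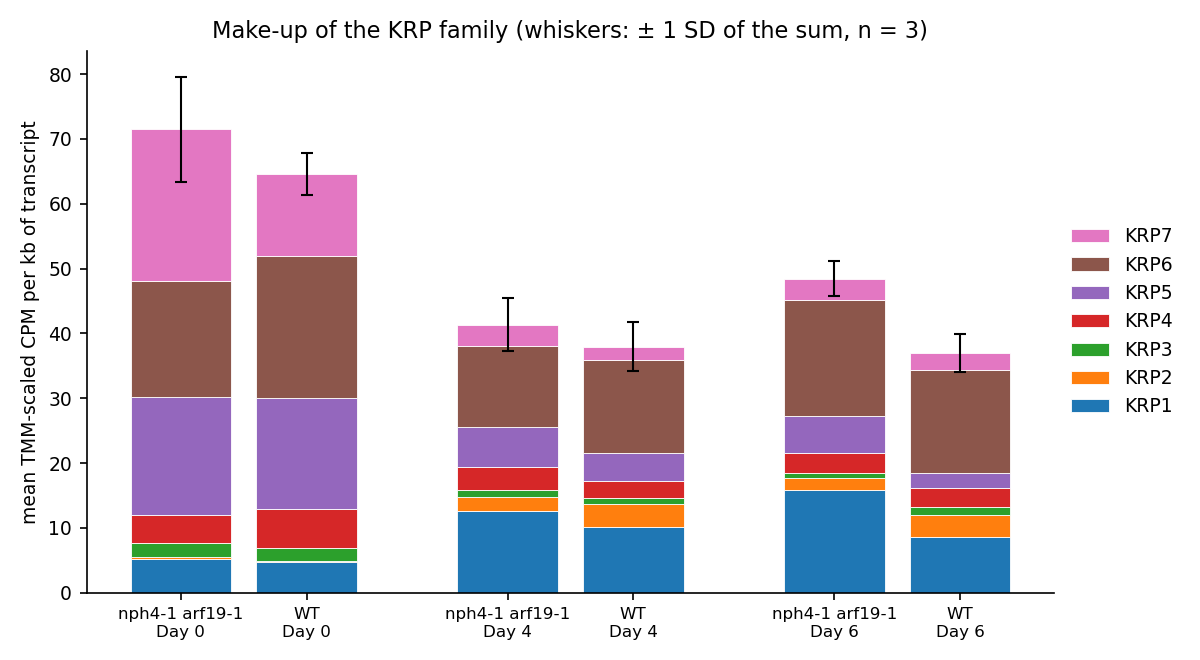
Stacked bars give the mean TMM-scaled CPM per kb of transcript of each KRP gene in the 6 groups, with *nph4-1 arf19-1* left of WT on each day, and whiskers give ± 1 SD of the summed level over 3 libraries. *KRP5*, *KRP6* and *KRP7* fill most of the Day 0 bars, while *KRP1* and *KRP6* fill most of the bars of Days 4 and 6, where the sum is 48.5 in *nph4-1 arf19-1* and 37.0 in WT at Day 6.

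After 4 and 6 days *KRP6* and *KRP1* had the highest levels per kb in both genotypes. The share of *KRP1* in the summed level per kb in *nph4-1 arf19-1* was 30.5% ± 3.23 at Day 4 and 32.7% ± 2.86 at Day 6, against 7.34% ± 2.64 at Day 0 (SD, n = 3 each). In the WT it was 26.9% ± 0.988 at Day 4 and 23.4% ± 1.41 at Day 6, against 7.35% ± 0.962 at Day 0 (SD, n = 3 each). The share of *KRP7* was 7.84% ± 3.28 and 6.64% ± 1.09 at Days 4 and 6 in *nph4-1 arf19-1*, against 32.5% ± 5.79 at Day 0. In the WT it was 5.43% ± 1.92 and 7.21% ± 0.839, against 19.6% ± 0.910 (SD, n = 3 each). Shares do not depend on how libraries are scaled.

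The change from Day 0 asks which inhibitors are lost or gained when mesophyll cells enter culture. In *nph4-1 arf19-1*, 5 of 7 members passed FDR < 0.01 at Day 4 (2 higher and 3 lower), where 75.0% of all 25202 variants tested did (39.0% higher and 36.1% lower), and 6 of 7 at Day 6 (2 higher and 4 lower), against 76.1% of all variants (40.2% higher and 35.9% lower). In the WT, 6 of 7 passed at Day 4 (2 higher and 4 lower), against 79.5% of all variants (42.6% higher and 37.0% lower), and 5 of 7 at Day 6 (2 higher and 3 lower), against 81.6% (43.9% higher and 37.7% lower). FDRs are from edgeR's quasi-likelihood test with Benjamini-Hochberg adjustment over all variants. In *nph4-1 arf19-1* the members' median log2 fold change was -0.52 (Day 4) and -0.57 (Day 6), and in the WT -1.05 and -0.77, against medians over all variants of 0.18 and 0.205 in *nph4-1 arf19-1* and 0.23 on both days in the WT. With the stricter limit that adds an absolute log2 fold change over 2, *KRP2* and *KRP7* passed in each of these comparisons, and *KRP5* in the WT at Day 6, against 32.7% of all variants (Day 4) and 36.1% (Day 6) in *nph4-1 arf19-1*, and 39.4% and 42.5% in the WT. Groups did not overlap with Day 0 for 6 of 7 members on both days in *nph4-1 arf19-1* (82.2% and 82.7% of all variants), and for 7 at Day 4 and 5 at Day 6 in the WT (84.8% and 87.0%). *KRP2*, among the higher calls in each comparison, passed the filter on low counts through its cultured libraries alone. It therefore adds no separate support to these counts.

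Directions against Day 0 depend on the scaling for some members. When libraries were scaled by their totals alone, the median of all variants in *nph4-1 arf19-1* moved to 1.19 (Day 4) and 1.10 (Day 6), and in the WT to 1.26 and 1.40. Under that scaling 4 members were called higher and 1 lower at Day 4 in *nph4-1 arf19-1*, and 3 higher and 2 lower at Day 6. In the WT, 2 were called higher and 2 lower at Day 4, and 3 higher and 2 lower at Day 6. *KRP1* and *KRP2* (higher) and *KRP5* and *KRP7* (lower) kept their directions in both genotypes on both days, although *KRP5* lost its call at Day 4 in *nph4-1 arf19-1* (-0.52, FDR 0.0311, edgeR), while *KRP3*, *KRP4* and *KRP6* did not in every case.

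*KRP2*, whose transcription in roots is known to be lowered by auxin before lateral roots form, was almost without reads in fresh protoplasts. It had 18, 13 and 10 reads at Day 4 and 10, 17 and 7 reads at Day 6 in *nph4-1 arf19-1*, against 1, 1 and 4 reads at Day 0. WT libraries had 27, 34 and 27 reads at Day 4 and 45, 25 and 27 at Day 6, against 0, 2 and 1 at Day 0. Every cultured library lay above every Day 0 library. From summed reads per effective library size, the ratio to Day 0 in *nph4-1 arf19-1* was 6.14 at Day 4 (exact 95% interval 2.59 to 17.7) and 5.38 at Day 6 (2.23 to 15.7). In the WT it was 21.6 at Day 4 (7.16 to 107) and 20.3 at Day 6 (6.73 to 99.96). The intervals are Clopper-Pearson intervals of the read split and cover counting error only. The rise passed the test in *nph4-1 arf19-1* (FDR 0.00031 at Day 4 and 0.000875 at Day 6, edgeR) and in the WT (FDR 5.82e-07 and 7.01e-07, edgeR). *KRP2* passed the filter on low counts through its cultured libraries alone, so its place in the test rests on the same reads as its rise. The difference between the genotypes' changes did not pass the test, at -1.75 on the log2 scale at Day 4 (95% interval -3.88 to 0.37) and -1.86 at Day 6 (-4.00 to 0.28).

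*KRP1* (also ICK1), the member first described in Arabidopsis, rose in both genotypes. In *nph4-1 arf19-1* it had 12.2, 18.1 and 14.4 CPM at Day 4 and 18.3, 16.2 and 21.5 CPM at Day 6, against 8.41, 4.49 and 5.44 CPM at Day 0. The WT had 13.3, 10.7 and 12.0 CPM at Day 4 and 10.96, 8.89 and 10.7 CPM at Day 6, against 5.58, 4.99 and 6.10 CPM at Day 0. No cultured library overlapped the Day 0 libraries of its genotype. The log2 fold change was 1.28 at Day 4 (SE 0.21, FDR 1.39e-05) and 1.59 at Day 6 (SE 0.21, FDR 6.03e-07) in *nph4-1 arf19-1*, and 1.12 (SE 0.21, FDR 5.27e-05) and 0.89 (SE 0.21, FDR 0.000604) in the WT (edgeR).

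*KRP7*, whose protein is removed by FBL17 in the male germline along with that of *KRP6*, fell in both genotypes. In *nph4-1 arf19-1* it had 2.35, 4.05 and 1.44 CPM at Day 4 and 2.78, 1.98 and 2.88 CPM at Day 6, against 14.4, 16.97 and 24.2 CPM at Day 0. In the WT it had 1.03, 1.71 and 2.07 CPM at Day 4 and 2.19, 2.11 and 1.97 CPM at Day 6, against 9.62, 9.97 and 10.4 CPM at Day 0. The cultured libraries of both genotypes formed one low range, well below Day 0. The log2 fold change was -2.79 at Day 4 (SE 0.27, FDR 6.12e-09) and -2.89 at Day 6 (SE 0.27, FDR 5.13e-09) in *nph4-1 arf19-1*, and -2.64 (SE 0.29, FDR 4.10e-08) and -2.25 (SE 0.27, FDR 1.31e-07) in the WT (edgeR).

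*KRP5*, which has been linked to endoreduplication, also fell in both genotypes. In *nph4-1 arf19-1* it had 6.08, 7.04 and 5.16 CPM at Day 4 and 5.74, 4.35 and 7.07 CPM at Day 6, against 20.6, 17.1 and 15.7 CPM at Day 0. WT libraries had 5.73, 3.02 and 4.01 CPM at Day 4 and 1.73, 2.33 and 2.72 CPM at Day 6, against 18.3, 18.1 and 14.4 CPM at Day 0. Day 0 did not overlap with culture in either genotype, and the Day 6 WT libraries were the lowest of the 18. The log2 fold change was -1.54 at Day 4 (SE 0.21, FDR 1.35e-06) and -1.69 at Day 6 (SE 0.22, FDR 5.54e-07) in *nph4-1 arf19-1*, and -1.98 (SE 0.21, FDR 3.01e-08) and -2.88 (SE 0.23, FDR 2.30e-10) in the WT (edgeR).

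**Figure D2:**
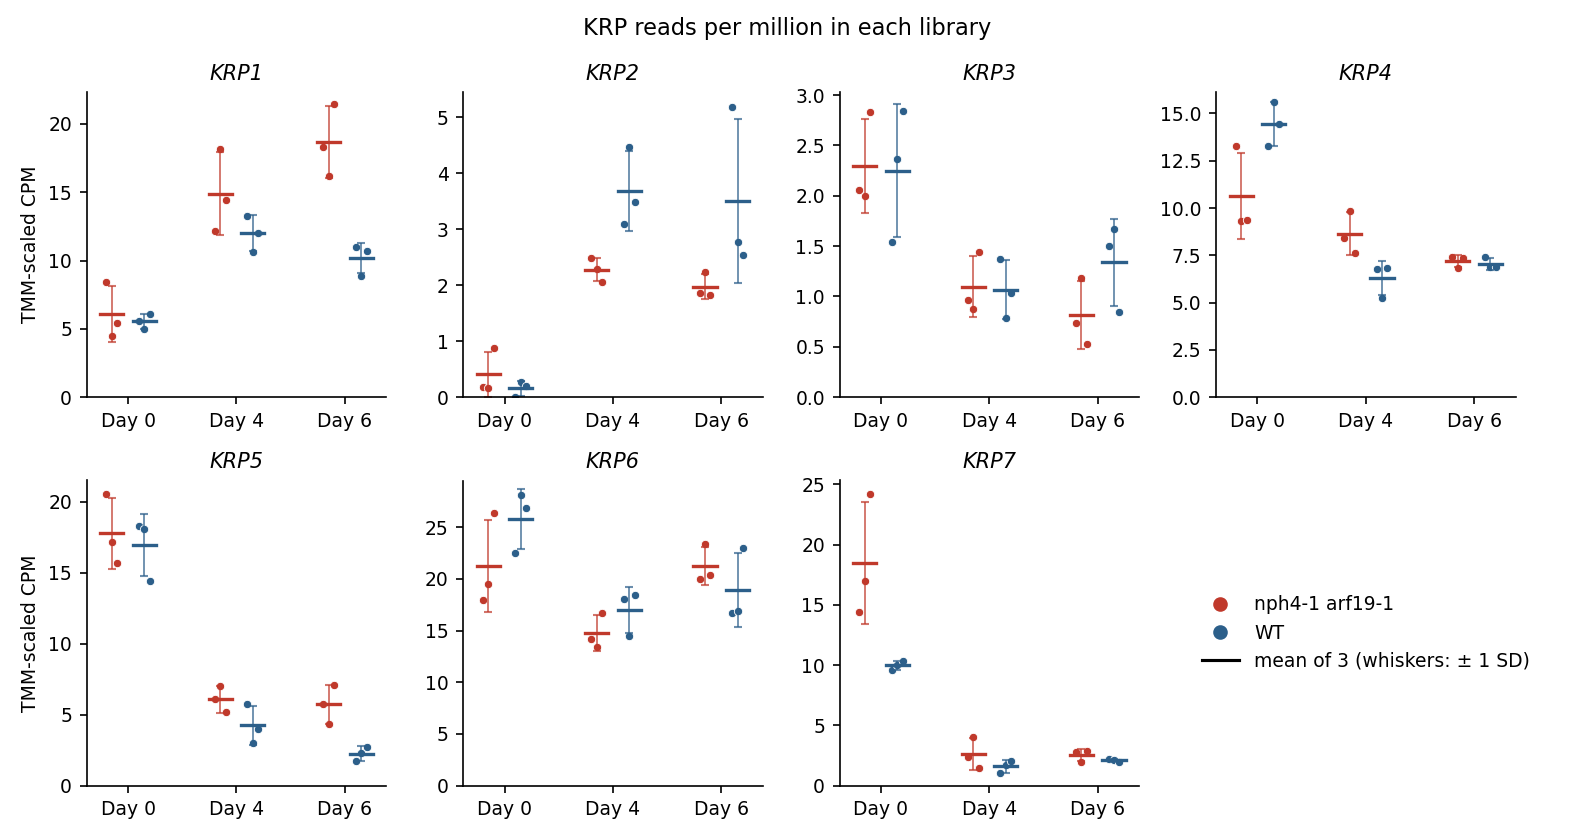
Each panel plots 1 KRP gene in TMM-scaled CPM on a linear axis from 0, with points for the 3 libraries of a group, a bar at the mean and whiskers of ± 1 SD, and *nph4-1 arf19-1* left of WT on each day. *KRP1* and *KRP2* are higher in culture than at Day 0, *KRP5* and *KRP7* are lower, and at Day 6 *KRP1* and *KRP5* of *nph4-1 arf19-1* lie above all WT points.

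*KRP4*, which in the shoot meristem scales the G1 phase with cell size, had 8.42, 9.86 and 7.63 CPM at Day 4 and 7.41, 6.85 and 7.33 CPM at Day 6 in *nph4-1 arf19-1*, against 13.3, 9.32 and 9.36 CPM at Day 0. The WT had 6.76, 5.26 and 6.85 CPM at Day 4 and 7.38, 6.89 and 6.86 CPM at Day 6, against 13.3, 15.6 and 14.4 CPM at Day 0. The WT libraries separated from Day 0 on both days and those of *nph4-1 arf19-1* on Day 6 only. On TMM-scaled values *KRP4* fell in the WT, with a 95% interval of the log2 fold change of -1.54 to -0.86 at Day 4 (FDR 8.20e-07) and a log2 fold change of -1.04 at Day 6 (-1.37 to -0.71, FDR 3.36e-06, edgeR), while with library totals alone the log2 fold changes were -0.17 and 0.13. In *nph4-1 arf19-1* its log2 fold change was -0.30 at Day 4 (FDR 0.109, edgeR) and -0.57 at Day 6 (FDR 0.0056, edgeR), and with library totals alone it was 0.71 (FDR 0.000832) and 0.33 (FDR 0.0984). The Day 6 call in *nph4-1 arf19-1* was lost without replicate 1 of Day 0 or any Day 6 library (-0.61 to -0.34 over 6 fits), and with RLE factors, no filter on low counts, a mean count of at least 10, only the libraries compared, or DESeq2 (FDR 0.0128 to 0.0445).

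*KRP6*, a target of the RING proteins RHF1A and RHF2A in gametophytes, had TMM-scaled log2 fold changes of -0.60 to 0.02 against Day 0. In *nph4-1 arf19-1* it had 14.2, 13.4 and 16.7 CPM at Day 4 and 20.01, 23.3 and 20.4 CPM at Day 6, against 17.9, 19.5 and 26.3 CPM at Day 0. In the WT it had 18.1, 14.5 and 18.5 CPM at Day 4 and 16.7, 16.9 and 23.0 CPM at Day 6, against 22.5, 28.1 and 26.8 CPM at Day 0. Day 4 lay below Day 0 without overlap in both genotypes, and Day 6 overlapped Day 0 in both. On TMM-scaled values it was lower at Day 4 by 0.52 in *nph4-1 arf19-1* (FDR 0.00908) and by 0.60 in the WT (FDR 0.0017, edgeR), and with library totals alone it was higher, at 0.50 and 0.43 (FDR 0.00891 and 0.0144). The call in *nph4-1 arf19-1* was lost without replicate 2 or 3 of Day 0 or replicate 1 or 2 of Day 4 (-0.61 to -0.31 over 6 fits), and under the same 5 settings as that of *KRP4* (FDR 0.015 to 0.0395, edgeR or DESeq2). The call in the WT was lost without replicate 2 of either day (-0.66 to -0.50) and with only the libraries compared (FDR 0.0142).

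*KRP3*, which is known from shoot meristem and leaf, had 2 to 18 reads in every library. In *nph4-1 arf19-1* it had 0.967, 0.880 and 1.44 CPM at Day 4 and 0.741, 1.19 and 0.524 CPM at Day 6, against 2.06, 2.00 and 2.83 CPM at Day 0. WT libraries had 1.37, 0.789 and 1.03 CPM at Day 4 and 1.50, 1.67 and 0.845 CPM at Day 6, against 1.54, 2.36 and 2.85 CPM at Day 0. Of these, only WT Day 6 overlapped the Day 0 group of its genotype. *KRP3* passed the test in 1 of the 4 comparisons with Day 0, at -1.34 in *nph4-1 arf19-1* at Day 6 (SE 0.41, FDR 0.00524, edgeR), a value that was -0.45 (FDR 0.338) with library totals alone and that lost its call in every fit with 1 library left out but the one without replicate 2 of Day 6 (-1.77 to -1.13), as well as with no filter (FDR 0.0119) and with DESeq2 (FDR 0.0178). The other values were -1.06 in *nph4-1 arf19-1* at Day 4, and -1.05 and -0.77 in the WT at Days 4 and 6 (FDR 0.0105 to 0.0404, edgeR).

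**Figure D3:**
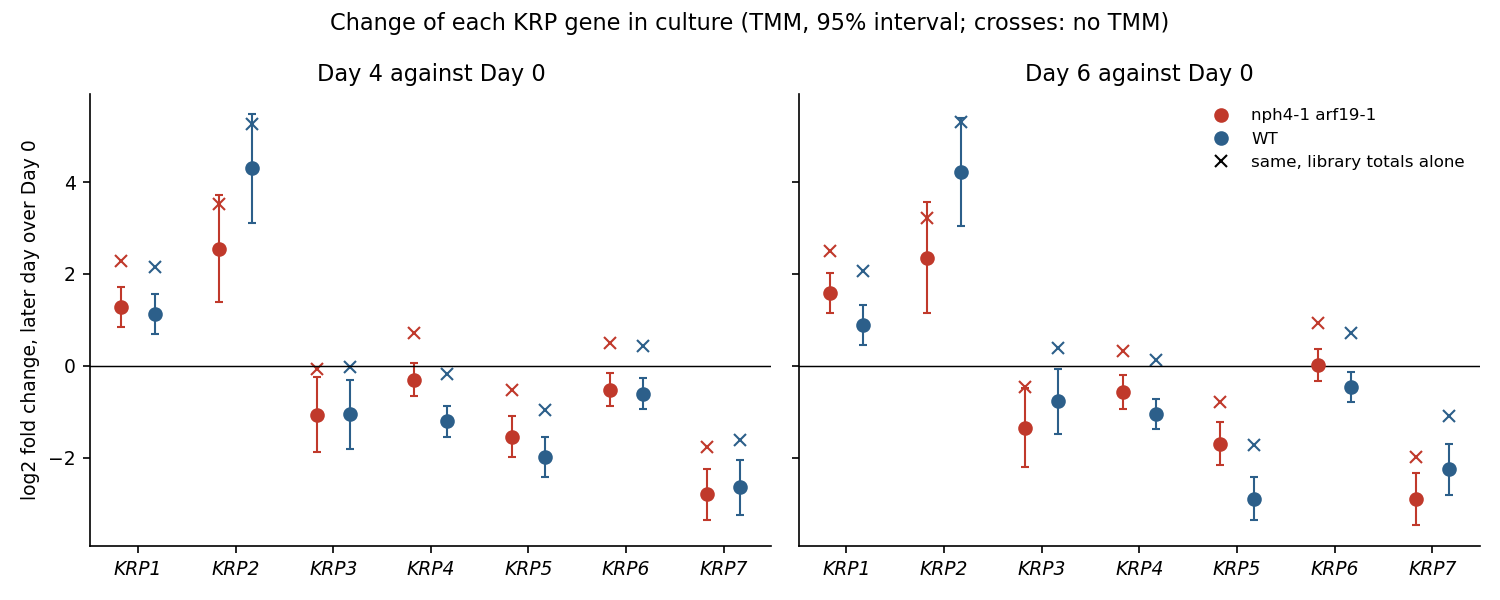
Points give the log2 fold change of each KRP gene at Day 4 and at Day 6 over Day 0 with its 95% interval on TMM-scaled counts, *nph4-1 arf19-1* left of WT, and crosses give the same value with library totals alone. *KRP1*, *KRP2*, *KRP5* and *KRP7* stay on 1 side of 0 under both scalings, and for *KRP4* and *KRP6* most crosses lie above 0 where the points lie below it.

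Between Day 6 and Day 4 no member passed the test in *nph4-1 arf19-1*, against 19.4% of all variants, and none in the WT, against 21.1% (edgeR). At an unadjusted p under 0.05 there was 1 member in each genotype, *KRP6* in *nph4-1 arf19-1* and *KRP5* in the WT, and DESeq2 called 0 and 1. *KRP6* had a log2 fold change of 0.54 in *nph4-1 arf19-1* (FDR 0.0214), and *KRP5* one of -0.90 in the WT (FDR 0.0117, edgeR).

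The direct comparison of the genotypes asks whether cells that lack ARF7 and ARF19 hold other inhibitor levels on a given day. At Day 0, 1 of 7 members passed, as higher, against 8.25% of all variants in either direction and 6.40% for higher calls. *KRP7* had 14.4, 16.97 and 24.2 CPM in *nph4-1 arf19-1* and 9.62, 9.97 and 10.4 CPM in the WT. All 3 mutant libraries were above the WT, and they spread more widely. The log2 fold change was 0.88 (SE 0.22, FDR 0.00887, edgeR), close to the limit. It was no longer called when any 1 Day 0 library other than replicate 1 of *nph4-1 arf19-1* was left out, 5 of 6 fits (0.64 to 1.03 over the 6 fits). All 5 mesophyll markers were also higher in *nph4-1 arf19-1* at Day 0, with log2 fold changes of 0.51 to 1.58 (median 0.89). Their summed levels, in the ranges given above, overlapped between the genotypes, and none of the 5 passed the test. The part of the mesophyll markers in the result was not tested. *KRP4* had 13.3, 9.32 and 9.36 CPM in *nph4-1 arf19-1*, against 13.3, 15.6 and 14.4 CPM in the WT, and its log2 fold change of -0.44 missed the limit (FDR 0.064, edgeR). *KRP4* and *KRP7* were the 2 members whose groups did not overlap, as was true of 31.6% of all variants, although for *KRP4* the highest mutant and the lowest WT library were almost equal.

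At Day 4 no member passed, against 27.8% of all variants (edgeR). At an unadjusted p under 0.05 there were 2, *KRP4* and *KRP5*, and DESeq2 called 0. *KRP4* had a log2 fold change of 0.46 (95% interval 0.10 to 0.82, FDR 0.0403), with 8.42, 9.86 and 7.63 CPM in *nph4-1 arf19-1* and 6.76, 5.26 and 6.85 CPM in the WT, and *KRP5* one of 0.51 (0.00 to 1.01, FDR 0.102). *KRP2* had 2.49, 2.29 and 2.06 CPM in *nph4-1 arf19-1* and 3.09, 4.47 and 3.49 CPM in the WT, and its log2 fold change was -0.67 (-1.37 to 0.03, FDR 0.121). *KRP2* and *KRP4* were the 2 members without overlap between the groups, against 49.2% of all variants. The intervals of *KRP1* (-0.08 to 0.69), *KRP3* (-0.85 to 0.84), *KRP6* (-0.57 to 0.14) and *KRP7* (-0.02 to 1.48) all held 0. For each of these genes, differences inside its own interval lie within the error of these libraries.

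At Day 6, *KRP1* and *KRP5* were higher in *nph4-1 arf19-1* than in the WT, and no member was lower. This is 2 of 7 members, against 47.4% of all variants in either direction and 24.0% for higher calls. *KRP1* had 18.3, 16.2 and 21.5 CPM in *nph4-1 arf19-1* and 10.96, 8.89 and 10.7 CPM in the WT. The groups were well apart, and the log2 fold change was 0.85 (SE 0.18, FDR 0.000452, edgeR). *KRP5* had 5.74, 4.35 and 7.07 CPM in *nph4-1 arf19-1* and 1.73, 2.33 and 2.72 CPM in the WT, again without overlap. Its log2 fold change was 1.26 (SE 0.27, FDR 0.000466, edgeR). Both calls held with each Day 6 library left out in turn, at 0.78 to 0.96 for *KRP1* and 1.14 to 1.46 for *KRP5*. With library totals alone, which moved the median of all variants to -0.43, *KRP5* stood at 0.87 (FDR 0.0077) and *KRP1* at 0.46 (FDR 0.0302), which is 1.31 and 0.89 above that median.

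*KRP2* ran the other way at Day 6. It had 1.85, 2.24 and 1.83 CPM in *nph4-1 arf19-1* and 5.19, 2.78 and 2.54 CPM in the WT. The groups did not overlap, and its log2 fold change of -0.78 missed the limit (FDR 0.0588, edgeR), but met it with library totals alone (-1.17, FDR 0.00519). *KRP1*, *KRP2* and *KRP5* were thus 3 of 7 members without overlap, against 67.1% of all variants. *KRP3*, *KRP4*, *KRP6* and *KRP7* had log2 fold changes of -0.57, 0.03, 0.17 and 0.24, with intervals that held 0. The median over the 7 members was 0.17, against -0.04 over all variants. Of 5 epidermal markers the sum was 18.9 to 21.5 CPM in *nph4-1 arf19-1* and 2.31 to 3.78 CPM in the WT at Day 6, nearly all of it *CER6*, *ATML1* had at most 3 reads in a library, and *PDF1* was at 0 in all 6 libraries. Of 5 vascular markers the sum was 1.48 to 2.24 CPM in *nph4-1 arf19-1* and 24.2 to 27.9 CPM in the WT, nearly all of it *SUC2*, with *APL* at 0 in all 6 libraries and *SWEET11* in the WT. Guard cell markers summed to 11.5 to 13.8 CPM in *nph4-1 arf19-1* and 7.62 to 10.7 CPM in the WT, with none of the 5 at 0 in all libraries of a group. The part of these cell types in the KRP differences was not tested.

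**Figure D4:**
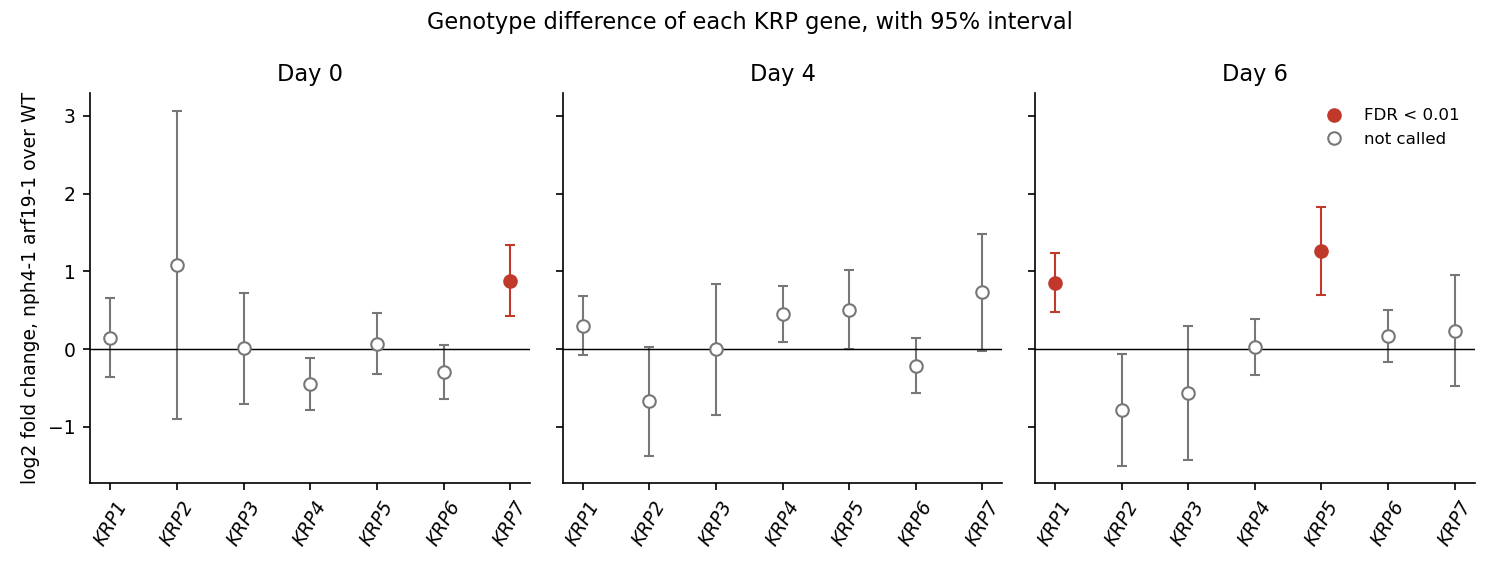
Points give the log2 fold change of *nph4-1 arf19-1* over WT for each KRP gene at Days 0, 4 and 6 with its 95% interval, filled where FDR < 0.01 over all variants. *KRP7* is filled at Day 0, no gene at Day 4, and *KRP1* and *KRP5* at Day 6, at 0.85 and 1.26.

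The change from Day 0 in *nph4-1 arf19-1* less that in the WT takes the starting level into account. At Day 4, 1 of 7 members passed, as higher, against 12.8% of all variants (6.73% higher), and at Day 6, 1 of 7, as higher, against 26.3% (14.6% higher). For *KRP4* at Day 4 the difference was 0.90 (SE 0.23, FDR 0.00872, edgeR), the direct values being -0.44 at Day 0 and 0.46 at Day 4. It was not called in 8 of 12 fits with 1 library left out (0.80 to 1.10), the 4 that kept the call being those without replicate 1 of WT Day 0, *nph4-1 arf19-1* Day 0 or WT Day 4, or replicate 3 of *nph4-1 arf19-1* Day 4, nor with 6 of 9 other settings, where the FDR lay between 0.0107 and 0.0242 (edgeR or DESeq2). For *KRP5* at Day 6 it was 1.197 (SE 0.33, FDR 0.00679, edgeR), and 8 of 12 fits with 1 library left out did not pass (FDR up to 0.0191), all but those without replicate 3 of WT Day 0 or WT Day 6, replicate 1 of *nph4-1 arf19-1* Day 0 or replicate 2 of *nph4-1 arf19-1* Day 6. *KRP1* had 0.71 at Day 6 (95% interval 0.07 to 1.34, FDR 0.0718, edgeR). For *KRP7* the intervals, -1.07 to 0.77 at Day 4 and -1.49 to 0.21 at Day 6, held 0.

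*KRP3*, *KRP4* and *KRP6* have a further variant in the tables. In *KRP4* both variants had nearly the same reads, 71, 56 and 43 for variant 1 and 68, 56 and 46 for variant 2 in *nph4-1 arf19-1* at Day 0, so reads of shared exons were counted on both. Read through variant 2, the relative change of *KRP4* at Day 4 was 0.98 (FDR 0.00383, edgeR) and its direct difference at Day 4 was 0.49 (FDR 0.0222). Variant 2 of *KRP6* fell at Day 6 in the WT (-0.61, FDR 0.00636, edgeR), where variant 1 did not pass (-0.45, FDR 0.0118). Variant 2 of *KRP3* passed in none of the 4 comparisons with Day 0.

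The order of the 6 groups differed among members. *KRP1* ran from *nph4-1 arf19-1* Day 6 and Day 4 over WT Day 4 and Day 6 to both Day 0 groups, and only WT Day 6 and *nph4-1 arf19-1* Day 0 were neighbours without overlap. *KRP2* had WT Days 4 and 6 at the top, *nph4-1 arf19-1* Days 4 and 6 next and Day 0 last, with a gap in range between these 3 pairs. *KRP5* had both Day 0 groups at the top and WT Day 6 alone at the bottom, with the other 3 groups overlapping in between. *KRP7* had *nph4-1 arf19-1* Day 0 above WT Day 0, and the 4 cultured groups overlapped in a chain. *KRP4* had WT Day 0 at the top and WT Day 4 at the bottom. In *KRP3* and *KRP6* every neighbour overlapped the next.

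Across the 6 group means of log2 CPM, each centred on its gene's mean, the members most alike were *KRP3* and *KRP4* (root mean square difference 0.26) and *KRP4* and *KRP6* (0.30), and the least alike were *KRP2* and *KRP7* (2.41). The median over 18142 other genes was 0.88 to 1.45 for the 7 members. By the same measure the 3 genes nearest to *KRP1* were AT1G11930, AT2G35830 and AT3G07480, and those nearest to *KRP5* were AT1G62510, GSA1 (AT5G63570) and PUX2 (AT2G01650). Nearest to *KRP7* were AT3G57730, AT5G47070 and AT5G01830, and nearest to *KRP6* were HMGB3 (AT1G20696), BPA1 (AT5G16840) and EMB1873 (AT5G08170). Nearest to *KRP2* were AT1G15930, AT1G51380 and SRF6 (AT1G53730), to *KRP3* AT1G53887, AT1G64050 and AT3G26920, and to *KRP4* AT1G48540, AT2G35540 and AT5G60680. These distances lay between 0.039 and 0.16, and the 6 points are the same 6 groups for all genes.

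The stretch upstream of *KRP1*, *KRP5* and *KRP7*, the members called between the genotypes, is shown because ARFs bind DNA. Windows of 250 bases before to 50 after the RefSeq gene start were searched on both strands for TGTCTC and TGTCGG (auxin response elements, bound by ARFs), TTTNNCGC (E2F sites) and AACGG (the core of the element bound by MYB3R factors). TGTCTC was in none of the 7 windows (14.2% of 27443 gene windows held it), TGTCGG in that of *KRP1* alone, 101 bases upstream on the minus strand (5.12%), and TTTNNCGC in none (7.41%). AACGG was in 5 of 7 (24.7%). It occurred 7 times in *KRP1*, 5 times in *KRP7*, 3 times in *KRP2*, once each in *KRP3* and *KRP6* and not in *KRP4* or *KRP5*. Windows with at least as many copies as *KRP1* made up 0.00729% of all windows, and as many as *KRP7* 0.0619%. The 250 bases before the gene start (RefSeq, TAIR10.1) follow, 5′ to 3′ in the direction of the gene, with AACGG or its complement CCGTT in capitals. They lie at chr2:9978091-9978340 (minus strand) for *KRP1*, chr3:9060586-9060835 (plus strand) for *KRP5* and chr1:18366745-18366994 (minus strand) for *KRP7*.
KRP1: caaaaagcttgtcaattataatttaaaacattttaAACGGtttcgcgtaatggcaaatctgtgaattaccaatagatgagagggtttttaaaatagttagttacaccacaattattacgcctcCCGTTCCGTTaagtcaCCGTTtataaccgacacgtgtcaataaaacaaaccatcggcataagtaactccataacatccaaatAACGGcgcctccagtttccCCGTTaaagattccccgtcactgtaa
KRP5: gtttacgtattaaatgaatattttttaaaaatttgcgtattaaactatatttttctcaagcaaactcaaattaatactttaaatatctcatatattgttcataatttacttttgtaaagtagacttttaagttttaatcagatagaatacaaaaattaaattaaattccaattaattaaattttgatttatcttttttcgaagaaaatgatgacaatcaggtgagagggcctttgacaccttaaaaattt
KRP7: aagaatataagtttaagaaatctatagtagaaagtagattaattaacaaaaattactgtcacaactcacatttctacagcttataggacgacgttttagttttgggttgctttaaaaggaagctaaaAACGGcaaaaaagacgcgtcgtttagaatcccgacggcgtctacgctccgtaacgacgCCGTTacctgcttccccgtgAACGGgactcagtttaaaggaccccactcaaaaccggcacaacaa
The printed stretch of *KRP1* holds 6 copies, that of *KRP7* 3 and that of *KRP5* none, a further copy in *KRP1* and *KRP7* spans the gene start, and *KRP7* has 1 more behind it. *KRP1* and *KRP5*, both higher in *nph4-1 arf19-1* at Day 6, thus had none of the searched motifs in common within the window. A match of letters is a description and does not show that a factor binds there.

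*CDKA;1*, the main KRP target, was lower in *nph4-1 arf19-1*, at 19.8 ± 2.27 CPM against 34.7 ± 4.67 CPM in the WT at Day 4 and 28.6 ± 2.53 CPM against 43.6 ± 1.42 CPM at Day 6 (SD, n = 3 each). The log2 fold change was -0.80 at Day 4 (FDR 0.000286) and -0.62 at Day 6 (FDR 0.00116, edgeR). *CDKB1;1* and *CDKB1;2*, the B1-type kinases of G2 and mitosis, were also lower on both days, so that 3 of 3 CDK genes passed as lower, against 13.0% of all variants at Day 4 and 23.4% at Day 6. *CDKB1;2* had 0 reads in *nph4-1 arf19-1* at Day 4 and 0 to 1 at Day 6, against 4 to 14 and 7 to 13 in the WT. It passed the filter on low counts through the cultured WT libraries alone, so its call adds no separate support to this count. The ratio of summed KRP reads to *CDKA;1* reads, which is not corrected for length and serves only to compare groups, was 2.58 ± 0.558 in *nph4-1 arf19-1* and 1.33 ± 0.115 in the WT at Day 4. At Day 6 it was 2.04 ± 0.0971 in *nph4-1 arf19-1* and 1.04 ± 0.115 in the WT, and at Day 0 it was 13.9 ± 3.49 in *nph4-1 arf19-1* and 12.8 ± 3.63 in the WT (SD, n = 3 each). The groups of Days 4 and 6 did not overlap between genotypes, those of Day 0 did.

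Of 10 D-type cyclin genes, which form the complexes that KRPs bind, 7 had enough reads to be tested. At Day 4, 2 were lower in *nph4-1 arf19-1* (*CYCD3;1* at -1.89 and *CYCD4;1* at -1.45) and none higher, against 13.0% of all variants called lower and 14.8% called higher. At Day 6, 5 of 7 were lower, against 23.4% of all variants, among them *CYCD3;1* at -1.94 and *CYCD4;1* at -1.37, and *CYCD2;1* was higher at 0.83 (1 of 7, against 24.0%). *CYCD1;1*, also called lower, had 0 to 1 reads in *nph4-1 arf19-1* and 10 to 24 in the WT, so no fold is given. It passed the filter on low counts through WT Day 6 alone, so its call adds no separate support to the 5 of 7. The median log2 fold changes at Day 6 were -0.995 for the cyclins and -2.79 for the CDKs, against -0.04 for all variants. Each list median takes in a gene that passed the filter through cultured WT libraries alone, *CYCD1;1* and *CDKB1;2*. The medians therefore add no separate support to the counts.

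The 6 genes for KRP removal went both ways. *RHF1A*, whose RING protein marks KRP6 for removal in the gametophytes, was at 38.9 ± 6.69 CPM in *nph4-1 arf19-1* and 16.9 ± 1.66 CPM in the WT at Day 6 (SD, n = 3 each; log2 fold change 1.19, FDR 3.24e-07, edgeR). Its partner *RHF2A* was higher at Day 4 (0.39, FDR 0.0036) and Day 6 (0.43, FDR 0.000816), and *RKP*, which acts on KRP1, at Day 0 (0.51) and Day 4 (0.55, FDR 0.00179). *FBL17* was lower at Day 6, at 21.2 ± 1.91 CPM in *nph4-1 arf19-1* and 32.9 ± 3.88 CPM in the WT (SD, n = 3 each; -0.63, FDR 0.000398, edgeR). *SKP2B*, which acts on KRP1, had 0.67 at Day 4 (FDR 0.0182) and 0.48 at Day 6 (FDR 0.0465), and *SKP2A* 0.00 and -0.04, none of which passed. At Day 6, 2 of 6 were thus higher and 1 lower, which in all is near the 47.4% of all variants called. These values are TMM-scaled, and the higher level of *RHF2A* at Day 6 is about the size of the shift that library totals alone gave the median of all variants on that day (-0.43).

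**Figure D5:**
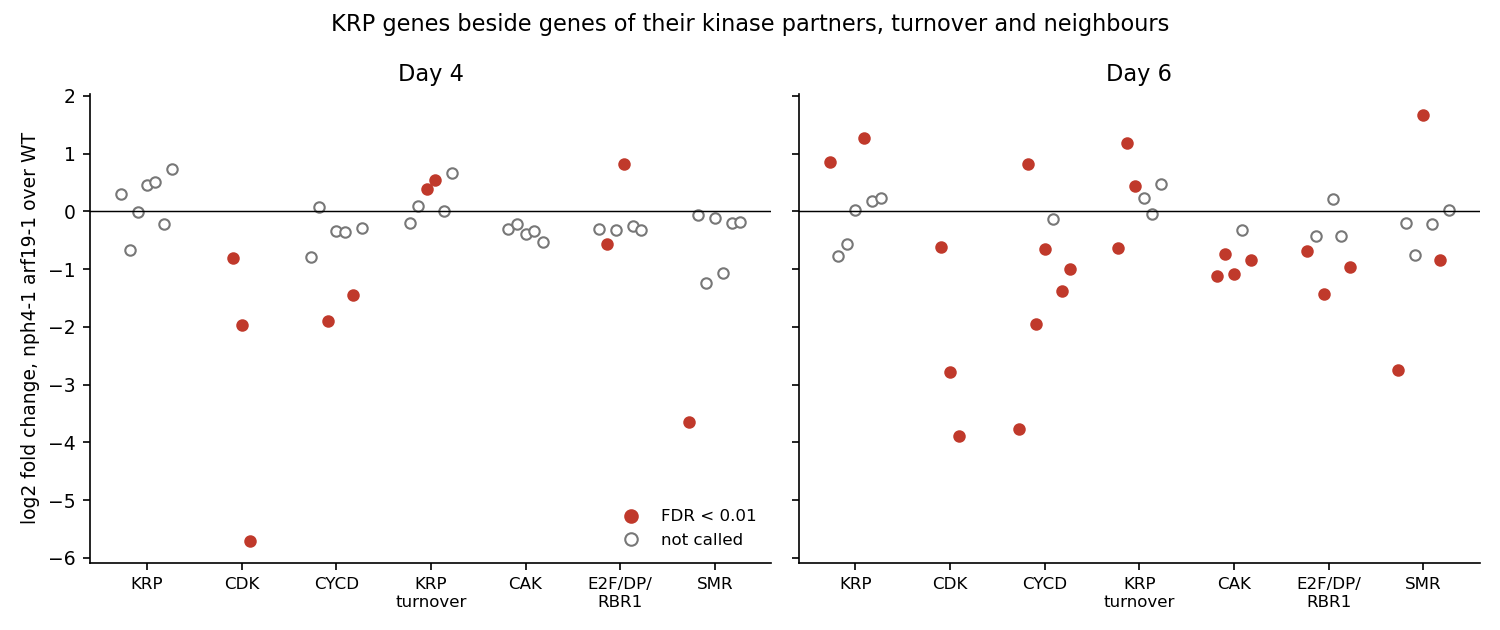
Each point is 1 gene's log2 fold change of *nph4-1 arf19-1* over WT at Day 4 or Day 6, by list, filled where FDR < 0.01 over all variants. At Day 6 the called KRP points (0.85 and 1.26) lie above 0, and the called CDK, CYCD, CAK and E2F/DP/RBR1 points lie below it except *CYCD2;1*. The Day 4 point of *CDKB1;2* comes from a mutant group without reads. The Day 6 points of *CDKB1;2* and *CYCD1;1* rest on 0 to 1 reads in each mutant library. The sizes of these points are not interpretable.

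The genes downstream and beside the KRPs are given as counts, to be read against the 27.8% of all variants called at Day 4 (14.8% higher and 13.0% lower) and the 47.4% called at Day 6 (24.0% higher and 23.4% lower). For the RBR1, E2F and DP list and the SIAMESE-related list the Day 6 counts in all are near that share. Of *RBR1*, the E2Fs and their DP partners (6 genes), 3 were lower at Day 6 (*RBR1* at -0.97, *E2FA* at -1.43 and *DPA* at -0.68) and none higher, and at Day 4 *E2FB* was higher (0.82) and *DPB* lower (-0.56). Of 5 genes for CDK-activating kinases, 4 were lower at Day 6 and 0 at Day 4. Of 9 SIAMESE-related genes, the other family of plant CDK inhibitors, 7 were tested. *SIM* was lower at Day 4 (0.092 CPM in *nph4-1 arf19-1* and 1.64 CPM in the WT) and Day 6 (-2.74), *SMR6* was lower at Day 6 (-0.84), and *SMR3* was higher at Day 6 (1.67). All 6 genes of the MCM2 to MCM7 helicase, which E2F activates, were lower on both days, with medians of -1.05 and -1.73.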

How the data were processed

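Per the labels and the study's methods, RNA was sequenced with a stranded mRNA kit as single-end reads and mapped with Bowtie 0.12.9 to TAIR10, and the authors deposited raw counts of uniquely mapped reads per splice variant for each library, with library totals. The counter and its strand setting are not given in the sources used here. Variants of a gene share reads, since variant counts summed to 1.45 to 1.51 times the total.

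Counts of all 18 libraries entered 1 fit in edgeR 4.0.16 (R 4.3.3) with 6 group means, library totals as sizes, TMM factors, filterByExpr (minimum count 10, minimum total 15) and the quasi-likelihood test. FDR < 0.01 over 25202 variants was the call. The TMM factors were 0.564 to 0.683 at Day 0 and 1.09 to 1.50 later. The relative change is the difference of the changes from Day 0. Alternatives were RLE factors, library totals or column sums, filters, single variants per gene, fewer libraries, a replicate block, DESeq2 1.42.0, other thresholds and leaving out each library. The tests were tested on simulated data. All members are named, with the 3 genes nearest to each. Members and lists were chosen with earlier results of these data known. Coding sequences were aligned with MAFFT 7.526. Coordinates are of RefSeq TAIR10.1.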

Additional observations from a re-analysis of the deposited data

Results flagged for a closer look

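The difference between the genotypes' changes from Day 0 passed its test for *KRP4* at Day 4 (0.90 on the log2 scale) and for *KRP5* at Day 6 (1.197). Each call was lost in 8 of 12 fits with 1 library left out. On each day this was 1 of 7 members, against 12.8% of all variants at Day 4 and 26.3% at Day 6. The Day 6 libraries of *nph4-1 arf19-1* also carry the yucasin label. The groups hold 3 libraries each, too few for the test of a single library that stands apart.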

How the results depend on the processing

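Of 1222 values of single members under alternatives, 63 lost the call and 13 gained it with the sign kept. Another 48 had the other sign, and 42 of these were called neither as reported nor under the alternative. The other 6 all came from library totals alone and were called as reported, with library totals alone, or under both. There *KRP4* stood at 0.71 and *KRP6* at 0.50 at Day 4 in *nph4-1 arf19-1*, and *KRP4* at 0.33 at Day 6. In the WT *KRP6* stood at 0.43 at Day 4, and *KRP4* at 0.13 and *KRP6* at 0.72 at Day 6, all over Day 0. As reported, *KRP4* at Day 4 in *nph4-1 arf19-1* (FDR 0.109) and *KRP6* at Day 6 in the WT (FDR 0.0118, edgeR) had not been called. With library totals alone, *KRP4* at Day 6 was not called in *nph4-1 arf19-1* (FDR 0.0984) or in the WT (FDR 0.451, edgeR). Nor was *KRP6* at Day 4 in the WT (FDR 0.0144, edgeR). Scaling by library totals alone moved the median of all variants by about 1 in these comparisons.

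The number of members called between genotypes at Day 0 was 0 in place of 1 with library totals alone, a mean count of at least 10, only the libraries compared, or the fold limit. At Day 4 it was 1 in place of 0 at FDR < 0.05, and at Day 6 it was 0 in place of 2 under the fold limit. For the relative change at Day 4 it was 0 in place of 1 with RLE factors, library totals alone, no filter, only the libraries compared, the replicate block, DESeq2 or the fold limit, and at Day 6 it was 0 in place of 1 with library totals alone or the fold limit. Under the fold limit it was 2 at Days 4 and 6 over Day 0 in *nph4-1 arf19-1*, in place of 5 and 6, and 2 and 3 in the WT, in place of 6 and 5. Smaller moves in *nph4-1 arf19-1* were 4 at Day 4 with RLE factors, no filter, a mean count of at least 10, only the libraries compared or DESeq2 (*KRP6* lost), and at Day 6 4 under those settings (*KRP3* and *KRP4* lost or not tested) except 5 with RLE factors. Between Days 6 and 4 it was 1 in place of 0 in *nph4-1 arf19-1* (only the libraries compared, FDR < 0.05) and 1 in place of 0 in the WT (no filter, DESeq2, FDR < 0.05). The cause of these moves was not tested.

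With 1 library left out, the counts between genotypes were 0 to 1 at Day 0, 0 to 0 at Day 4 and 2 to 2 at Day 6. Over Day 0 they were 4 to 5 at Day 4 and 4 to 5 at Day 6 in *nph4-1 arf19-1*, and 5 to 7 and 5 to 6 in the WT. Between Days 6 and 4 they were 0 to 0 in *nph4-1 arf19-1* and 0 to 1 in the WT, and for the relative changes 0 to 1 on both days. In 546 such values no called value turned, and 29 that had not been called took the other sign.

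Replicate numbers gave no clear pairing of the libraries. Same-numbered libraries of different groups correlated at -0.108 to 0.272 (median 0.00347, 5 of 45 pairs over 0.1). Differently numbered ones correlated at -0.273 to 0.163 (median -0.00135, 5 of 90 pairs over 0.1). Of 18 libraries, 8 correlated best with their own number, so pairing of some libraries is not excluded. With the replicate block, 75 of 77 member values kept their call. *KRP4* lost the relative change at Day 4 (0.91, FDR 0.0116, edgeR), and *KRP6* gained the fall at Day 6 in the WT (-0.46, FDR 0.00464, edgeR).

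*KRP2* (0 to 4 reads at Day 0) and *KRP3* (2 to 18 reads) are the members whose depth limits what can be seen.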
